A study of Mus musculus with 32 samples.

Results

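The mouse *Cyp3a* family was followed in liver RNA-Seq of mice that lack *Cyp2c70*, the enzyme that makes muricholic acids, and of mice given an inhibitor of intestinal bile acid uptake. The family was taken as the 8 genes named *Cyp3a11*, *Cyp3a13*, *Cyp3a16*, *Cyp3a25*, *Cyp3a41a*, *Cyp3a41b*, *Cyp3a44* and *Cyp3a59* among the 54532 genes counted. A further 3 rows of the table carry *Cyp3a* names and were left aside. Of these, *Cyp3a57* and *Cyp3a61-ps1* reached at most 7 counts and 1 count in a library, and the pseudogene *Cyp3a63-ps* reached 102.

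All mice were on a C57BL/6 background, and livers were taken at 12 weeks of age. There were 8 groups of 4 mice, made up of males and females, wild type (WT) or *Cyp2c70* knockout (KO), fed chow or chow with SC-435. SC-435 is an inhibitor of the ileal bile acid transporter (IBAT), the carrier that returns bile acids from the intestine, and was given at 0.006% of the diet, or about 11 mg/kg per day. The labels start the SC-435 diet 3 weeks after weaning, whereas the experimental scheme of the study shows the switch at weaning. The KO line carries a constitutive deletion spanning exon 2 and was bred from a founder mouse made with CRISPR-Cas9, so that no tissue of the KO mice escapes the deletion. WT and KO mice on chow received the same diet without SC-435. Each library comes from flash-frozen liver tissue of a separately numbered mouse, taken according to the methods from part of the lobes, and in such bulk samples fewer cells of a type and less RNA per cell cannot be told apart.

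CYP3A proteins are monooxygenases of the endoplasmic reticulum that hydroxylate steroids, bile acids and many drugs. Their genes are textbook targets of the nuclear receptors PXR and CAR, which respond to foreign compounds and to some bile acids. In mouse liver several members are expressed mainly in females, under control of the sex-specific pattern of growth hormone secretion that acts through STAT5.

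All 8 genes lie on chromosome 5 (GRCm38) and are annotated as protein-coding, each with a coding transcript of 13 exons. *Cyp3a13* (ENSMUSG00000029727) stands apart, from 137892932 to 137921619. The other 7 lie together between 145436309 and 146113287, in the order *Cyp3a16*, *Cyp3a41b*, *Cyp3a41a*, *Cyp3a44*, *Cyp3a11*, *Cyp3a25* and *Cyp3a59*. *Cyp3a59* is on the plus strand and the other 7 genes are on the minus strand. The coding sequences form recognisable subgroups. *Cyp3a41a* and *Cyp3a41b* were 99.9% identical, with 2 differing bases in 1515. *Cyp3a44*, *Cyp3a11* and *Cyp3a16* were 95.8%, 95.2% and 92.7% identical to *Cyp3a41a*. *Cyp3a25* and *Cyp3a59* were 97.5% identical to each other and 75.7% and 75.02% identical to *Cyp3a41a*.

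The bases that separate the coding sequences of *Cyp3a41a* and *Cyp3a41b* are shown because reads from the 2 genes can be assigned only where the transcripts differ. Positions are counted from 1 at the first base of the start codon, the first base named is that of *Cyp3a41a*, and the differing base is in capitals. The substitution G120A gave these 31-base stretches, from the GENCODE transcripts:
Cyp3a41a: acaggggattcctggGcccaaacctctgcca
Cyp3a41b: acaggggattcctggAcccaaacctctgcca
The substitution G336T gave the following stretches:
Cyp3a41a: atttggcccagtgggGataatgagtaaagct
Cyp3a41b: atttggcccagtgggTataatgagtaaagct

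Of the 150-base words in the annotated transcripts of *Cyp3a41a*, 82.9% also occurred in *Cyp3a41b*, and at 50 bases 98.6% occurred in another gene. Values for either gene alone are therefore uncertain, and their sum is used as a check. The share of their joint reads counted on *Cyp3a41a* had a median of 48.2% over the 16 females and ranged from 29.7% to 61.6%. For *Cyp3a25* and *Cyp3a59*, 26.8% and 30.02% of 50-base words occurred in another gene, and 0.586% and 0.649% of 150-base words did. No 150-base word of *Cyp3a11*, *Cyp3a13*, *Cyp3a16* or *Cyp3a44* occurred in the transcripts of another gene.

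Upstream sequence is shown for the subgroup that holds both the female-predominant genes and *Cyp3a11*, which is abundant in both sexes. The sequences are from RefSeq (GRCm38.p6), which has an entry for all 8 genes, and run from 250 to 111 bases before the annotated start on the minus strand. They lie at chr5:145720247-145720386 for *Cyp3a41a*, chr5:145805985-145806124 for *Cyp3a44*, chr5:145469834-145469973 for *Cyp3a16* and chr5:145879965-145880104 for *Cyp3a11*, and none overlaps a GENCODE exon of its gene. Capitals mark bases that differ from *Cyp3a41a* or have no counterpart in it.
Cyp3a41a: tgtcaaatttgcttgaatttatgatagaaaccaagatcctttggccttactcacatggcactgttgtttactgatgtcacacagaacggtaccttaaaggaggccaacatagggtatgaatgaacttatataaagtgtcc
Cyp3a44: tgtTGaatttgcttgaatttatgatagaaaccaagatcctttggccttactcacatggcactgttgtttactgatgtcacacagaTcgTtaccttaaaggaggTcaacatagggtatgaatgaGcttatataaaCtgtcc
Cyp3a16: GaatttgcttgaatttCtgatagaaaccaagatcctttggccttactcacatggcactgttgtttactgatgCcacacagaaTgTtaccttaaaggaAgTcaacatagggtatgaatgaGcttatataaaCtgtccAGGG
Cyp3a11: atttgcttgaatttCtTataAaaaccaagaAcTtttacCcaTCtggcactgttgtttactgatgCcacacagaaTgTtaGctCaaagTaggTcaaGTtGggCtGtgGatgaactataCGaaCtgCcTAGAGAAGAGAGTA

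The 140 bases of *Cyp3a41b* (chr5:145584841-145584980) were identical to those of *Cyp3a41a*. *Cyp3a44* differed from them at 7 positions (95.0% identity) and *Cyp3a16* at 9 positions with 8 unmatched bases (88.2%). *Cyp3a11* differed at 26 positions with 26 unmatched bases (66.0%), ends included, because the annotated starts are not at equivalent places. The same stretch of *Cyp3a25* shared 42.9% of aligned bases with *Cyp3a41a*. Sequence motifs were searched on both strands of the full 300-base windows, which reach 50 bases past the start. The HNF4A element CAAAGTCCA was found in *Cyp3a41a*, *Cyp3a41b*, *Cyp3a16* and *Cyp3a11*, against 0.475% of the 32851 windows in the RefSeq table. The letters TATAAA were found in these 4 genes and in *Cyp3a44*, against 13.6% of all windows. The nuclear receptor core motif AGGTCA was found in *Cyp3a11*, *Cyp3a44*, *Cyp3a25* and *Cyp3a59* (16.3% of all windows), and CCAAT in *Cyp3a13*, *Cyp3a25* and *Cyp3a59* (37.4%). The windows of *Cyp3a41b*, *Cyp3a44*, *Cyp3a16* and *Cyp3a11* were 97.0%, 93.0%, 92.1% and 70.4% identical to that of *Cyp3a41a*. Those of *Cyp3a25* and *Cyp3a59* were 95.7% identical to each other. Matches in such related windows are not independent of each other. The STAT5 element TTCNNNGAA was found in none of the 8 windows and in 8.30% of all windows. The ER6 element of PXR, an everted repeat that contains the core motif, was found in none of the 8 and in 0% of all windows. A match or its absence concerns these letters in this window only.

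Levels are CPM, that is, counts relative to library size (cpm of edgeR) after TMM scaling over the 32 libraries, and levels of different genes are compared as CPM per kb of the gene length in the deposited table. Libraries held between 36476021 and 44771350 counts, with a median of 42232543. The targeted gene *Cyp2c70* was at 258 to 816 CPM of the unscaled library total in WT mice and 103 to 229 in KO mice, with no overlap. Counts over the whole gene include exons outside the deletion. Hepatocyte markers were present in every library, with at least 1177203 counts on albumin. In the WT males on chow, replicate 1 stood apart, with a TMM scaling factor of 0.639 against 0.955 to 1.01 in the other 3 mice and a mean correlation with its group of 0.871 against 0.947 to 0.951. Counts of called members in comparisons that use this mouse are given with and without it. Counts over other gene lists include it throughout.

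*Cyp3a11*, the main liver enzyme of the family and the one most often used as a marker of PXR activity, had the highest level per length in every group, from 573 ± 79.2 CPM per kb (SD, n = 4) in WT females on chow to 1045 ± 75.6 in KO males on SC-435. Its deposited length of 5093 bases includes a transcript with a retained intron, which lowers its value per length. *Cyp3a25*, a member expressed in both sexes, followed with 248 to 427 CPM per kb. *Cyp3a13*, the member at a distance from the cluster, was at 43.2 to 66.2 CPM per kb, and *Cyp3a59*, the close relative of *Cyp3a25*, was at 22.6 to 54.1. In WT females on chow *Cyp3a41a*, *Cyp3a44* and *Cyp3a41b* averaged 33.8 ± 29.5, 27.6 ± 22.0 and 27.1 ± 21.3 CPM per kb, and *Cyp3a16* averaged 9.88 ± 9.86. The means of the first 3 differed by less than 1 SD, and the SD of each of the 4 was nearly as large as its mean. The 8 genes together took 0.386% ± 0.0522 of all counts in WT females on chow, 0.619% ± 0.116 in KO females on chow, and between 0.443% and 0.598% in the male groups.

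**Figure D1:**
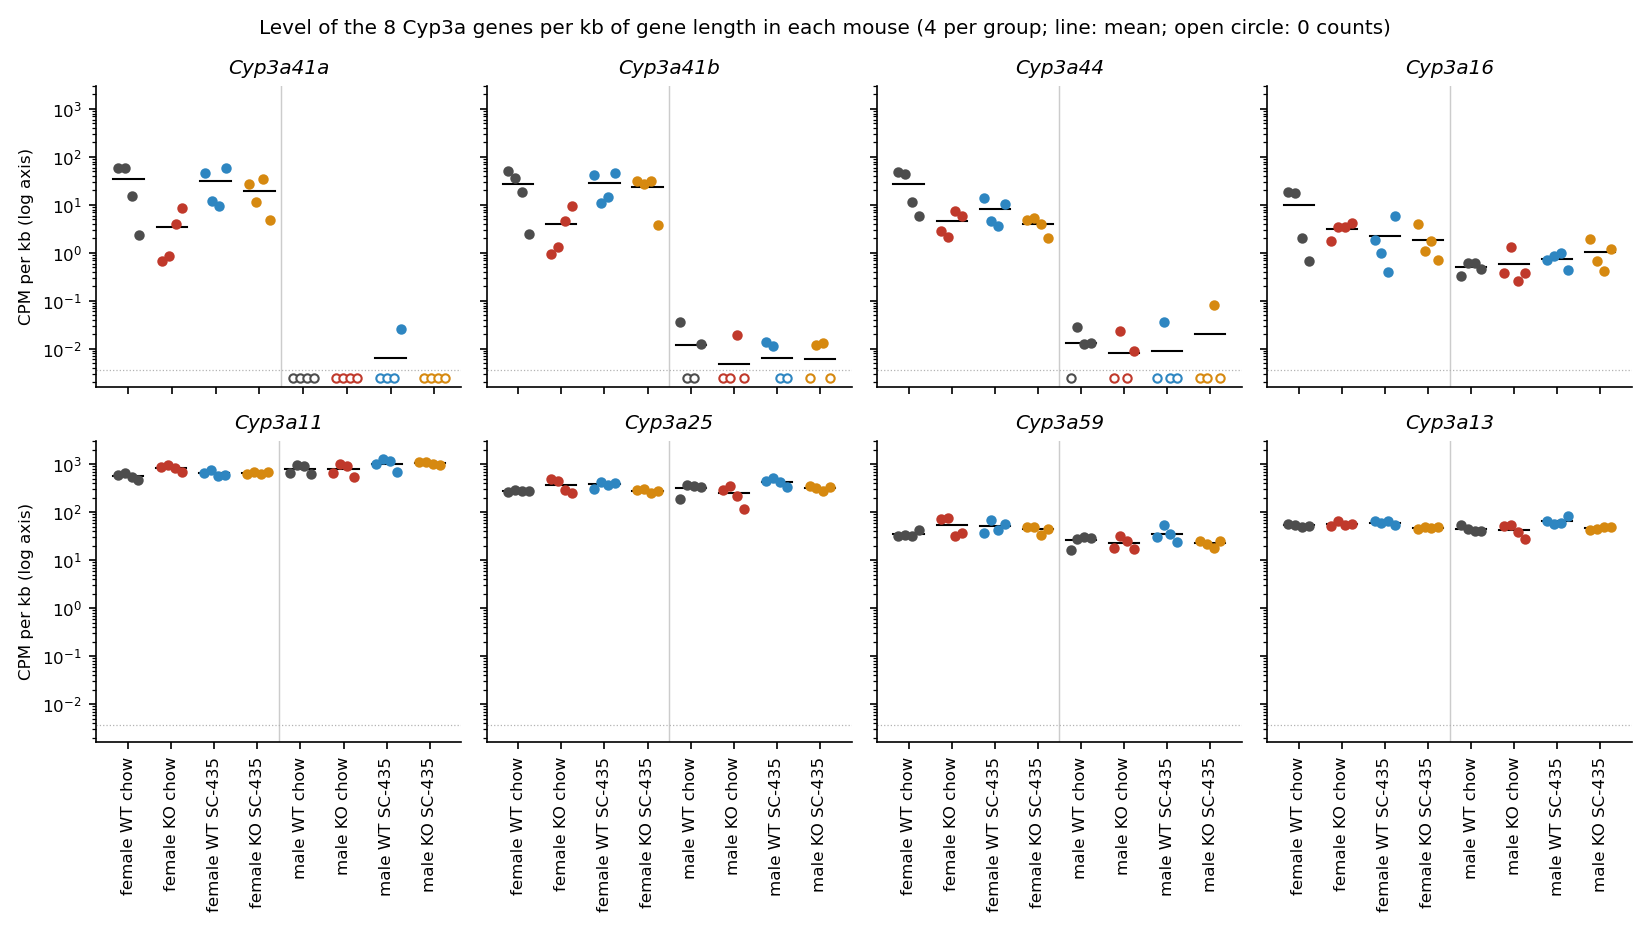
Level of each gene in each of the 32 mice, in CPM per kb of gene length on a log axis, by group (4 mice each; line, mean; open circles below the dotted line, mice with 0 counts). *Cyp3a41a*, *Cyp3a41b* and *Cyp3a44* lie near 0 in males and spread widely among females, whereas *Cyp3a11*, *Cyp3a25*, *Cyp3a59* and *Cyp3a13* lie in a narrow band in both sexes.

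The largest contrast in the family was between the sexes. *Cyp3a41a*, *Cyp3a41b* and *Cyp3a44*, which carry steroid hydroxylases of female liver, were almost silent in males. *Cyp3a41a* had 2 counts over all 16 males, both in a single mouse, and 74 to 5268 counts in each female. *Cyp3a41b* had 9 counts over the 16 males and 101 to 4169 in each female. *Cyp3a44* had 16 counts over the 16 males, of which 6 were in a single mouse, and 176 to 3720 in each female. *Cyp3a16*, another female-type member best known from fetal liver, was lower in males without being absent, at 15 to 138 counts per male and 28 to 1315 per female. How many of the few male reads stem from related transcripts was not tested.

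In WT mice on chow, 3 of the 8 genes were called higher in females and 0 lower, where 1.4% of the 15525 genes tested were called and 0.709% were called higher. Calls required a log2 fold change beyond 1 in size together with an adjusted p below 0.05 in the quasi-likelihood test of edgeR. *Cyp3a41a* had 11228 counts over the 4 females and 0 over the 4 males, at least 3251-fold higher against a floor of 3 counts over the group (adjusted p = 0.0278). *Cyp3a41b* had 8961 counts against 3, a ratio of 2595 with a 95% counting interval of 888 to 12585 (adjusted p = 0.00231). *Cyp3a44* had 8720 counts against 4, a ratio of 1894 with an interval of 739 to 6952 (adjusted p = 0.00109). These intervals and floors cover counting error only. *Cyp3a16* did not pass, with a log2 fold change of 4.24 (SE 0.99, adjusted p = 0.0886), although every female exceeded every male. Without replicate 1 of the WT males 4 genes were called, 3.82% of all genes were called, and *Cyp3a16* had a log2 fold change of 4.102 (SE 1.09, adjusted p = 0.0459). *Cyp3a16* was also called without replicate 4 of the females (adjusted p = 0.0264), by DESeq2 (1.34e-05), with no filter on low counts (0.033) and with all 8 groups in a single fit (0.00141), while voom did not call it (0.159). The adjusted p of *Cyp3a41a* was 0.0575 to 0.0954 when any 1 of replicates 1, 2 and 3 of the females or 2, 3 and 4 of the males was left out, with 0 counts in every male throughout.

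The same 3 genes were called higher in females in each of the other 3 settings, where the called share was 1.57% of genes in KO mice on chow (0.743% higher), 2.15% in WT mice on SC-435 (1.14% higher) and 6.02% in KO mice on SC-435 (4.06% higher). For *Cyp3a41a* the difference was at least 431-fold in KO mice on chow and at least 2091-fold in KO mice on SC-435. *Cyp3a44* differed by a ratio of 571 (interval 195 to 2770) in KO mice on chow and 210.1 (96.3 to 574) in KO mice on SC-435. All 6 male counts behind the latter ratio were in replicate 3, and the other 3 males had 0. Without that mouse the fitted log2 fold change went from 7.61 to 11.37, a value that depends on the prior count of the fit. In KO mice on chow *Cyp3a16* was also called, with a log2 fold change of 2.47 (SE 0.51, adjusted p = 0.0388), and at 3.07 to 7.39 CPM in females and 0.453 to 2.299 CPM in males the groups did not overlap. That call was lost when any of 6 of the 8 mice was left out (adjusted p = 0.0534 to 0.103), which were the 4 females and replicates 1 and 3 of the males. The adjusted p of *Cyp3a41a* was 0.06 to 0.0774 without replicate 3 of the females or any 1 of replicates 1, 2 and 3 of the males. On SC-435 the sex difference of *Cyp3a16* was 1.62 (SE 0.70, adjusted p = 0.191) in WT mice and 0.83 (SE 0.54, adjusted p = 0.276) in KO mice, and the sexes overlapped.

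Among the members abundant in both sexes, differences between the sexes reached at most 2.397-fold. In KO mice on SC-435, *Cyp3a11* was at 3149 to 3477 CPM in females and 4926 to 5656 CPM in males, with no overlap. Its log2 fold change was -0.67 (SE 0.08, adjusted p = 0.000232), under the fold required for a call. At an adjusted p under 0.05 alone, 5 members and 26.3% of all genes passed in this comparison. Of 9 cholangiocyte markers 5 were called higher in these females, with summed levels of 120.3 to 169.2 CPM against 68.04 to 79.1 CPM in males, and of 4 enterocyte markers 2 were called higher and 1 lower. Their part in the sex differences was not tested. In the same mice *Cyp3a59* was at 67.7 to 97.9 CPM in females and 36.7 to 51.4 CPM in males, a log2 fold change of 0.97 (SE 0.13, adjusted p = 0.00041). It passed the fold threshold without replicate 3 of the females or replicate 1 or 4 of the males, at up to 1.08. In KO mice on chow *Cyp3a59* had a log2 fold change of 1.26 (SE 0.33) but an adjusted p of 0.0834 by edgeR. It was called by DESeq2 (adjusted p = 0.00347), by voom (0.0366), with no filter on low counts (0.0472) and with all 8 groups in a single fit (0.00531). In WT mice on SC-435 *Cyp3a11* was at -0.66 (SE 0.19, adjusted p = 0.0656). *Cyp3a25* and *Cyp3a13* were not called in any of the 4 sex comparisons, with log2 fold changes from -0.22 to 0.61. In WT mice on chow *Cyp3a25* had -0.39 (SE 0.09, adjusted p = 0.0271) without replicate 1 of the males, under the fold required for a call.

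Other sex-dependent liver genes were counted beside the family. Of 11 genes listed as female-biased in liver, 10 were called higher in WT females on chow, among them *Cyp2b13*, *Sult2a1* and *Sult3a1*. Of 12 male-biased genes 11 were called lower. In the other 3 settings 9, 11 and 11 of the 11 female-biased genes were called higher, and all 12 male-biased genes lower. Of 13 regulators of growth hormone signalling, 3 were called higher in each setting. Called lower were 0 on chow in WT and in KO mice, 1 in WT mice on SC-435 and 2 in KO mice on SC-435. In WT mice on chow *Cux2*, a repressor of male genes in female liver, was at 5.56 (SE 0.61, adjusted p = 0.00218 by edgeR). *Nr1i2*, which encodes PXR, had a log2 fold change of 0.13 (SE 0.24, adjusted p = 0.88).

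Variation among females of the same group was wide for the female-type genes. In the WT females on chow *Cyp3a41a* was at 122.8, 120.2, 31.0 and 4.82 CPM in replicates 1 to 4, a 25.5-fold span. *Cyp3a41b* was at 106.3, 74.8, 37.6 and 5.06 CPM in the same mice, *Cyp3a44* at 94.7, 87.9, 22.3 and 11.6 CPM, and *Cyp3a16* at 32.6, 31.1, 3.54 and 1.19 CPM. The same mice were highest and lowest for all 4 genes, of which *Cyp3a41a* and *Cyp3a41b* share most of their sequence and are not independent. By contrast *Cyp3a11* spanned 1.39-fold in these mice and *Cyp3a25* 1.13-fold. The order of mice was also shared in KO females on chow for *Cyp3a41a*, *Cyp3a41b* and *Cyp3a16*, with replicate 4 highest and replicate 1 lowest, while *Cyp3a44* followed another order. On SC-435 the order was not the same for all 4 genes in either female group.

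**Figure D2:**
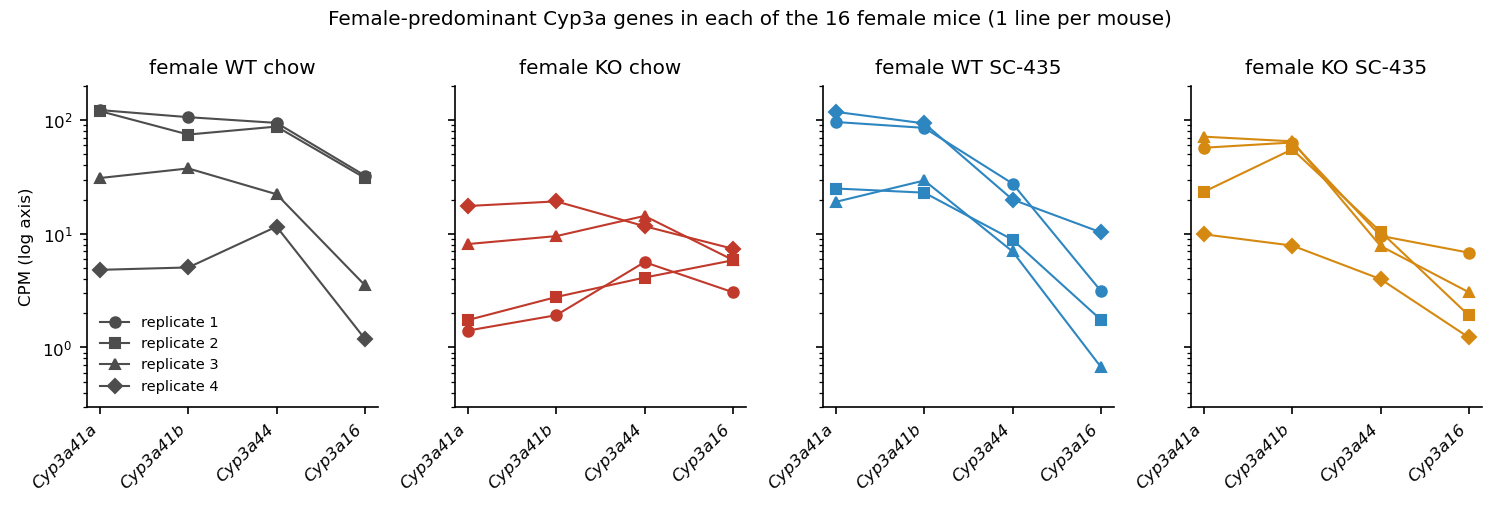
CPM of *Cyp3a41a*, *Cyp3a41b*, *Cyp3a44* and *Cyp3a16* in each of the 16 females on a log axis, with a line per mouse and a panel per group. The WT females on chow keep the same order for all 4 genes, with *Cyp3a41a* from 122.8 to 4.82 CPM. All KO females on chow lie at or below 19.3 CPM for the 4 genes.

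In chow-fed females, KO mice had less *Cyp3a44* than WT mice and somewhat more *Cyp3a11*. Of the 8 members tested, 0 were called higher and 1 lower, where 6.68% of the 16205 genes tested were called and 1.01% were called lower. The gene called was *Cyp3a44*, at 94.7, 87.9, 22.3 and 11.6 CPM in WT mice and 5.64, 4.12, 14.4 and 11.7 CPM in KO mice. The lowest WT mouse overlapped the KO group, and the other 3 WT mice lay above it. Its log2 fold change was -2.57 (SE 0.66, adjusted p = 0.0269 by edgeR), a 5.96-fold lower level.

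*Cyp3a41a* and *Cyp3a41b* did not pass in the same comparison. *Cyp3a41a* was at 1.41, 1.74, 8.13 and 17.6 CPM in KO females, where the lowest WT mouse at 4.82 CPM overlapped the KO range. Its log2 fold change was -3.27 (SE 1.009, adjusted p = 0.0551). *Cyp3a41b* was at 1.92, 2.78, 9.55 and 19.3 CPM in KO females, with a log2 fold change of -2.73 (SE 0.88, adjusted p = 0.0638). *Cyp3a16* was at 3.07 to 7.39 CPM in KO mice against 1.19 to 32.6 CPM in WT mice, with a log2 fold change of -1.61 (SE 0.81, adjusted p = 0.213). DESeq2 called 3 members lower, *Cyp3a41a* (adjusted p = 0.0212) and *Cyp3a41b* (adjusted p = 0.0357) besides *Cyp3a44*, and voom with quality weights called 1. Over all genes, 1218 were called by DESeq2 and 1082 by edgeR. Leaving out single mice moved the count between 0 and 3. It was 0 without replicate 1 or 2 of either group, and 3 without replicate 4 of either group.

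*Cyp3a11* was at 3105, 3341, 2815 and 2405 CPM in WT females on chow and 4544, 4872, 4156 and 3578 CPM in KO females. Every KO mouse was above every WT mouse. The log2 fold change of 0.58 (SE 0.14, adjusted p = 0.0238 by edgeR) corresponds to 1.49-fold. It passed the p threshold, as 2 of the 8 members and 14.9% of all genes did, but not the fold threshold. With single mice left out, the log2 fold change of *Cyp3a11* was 0.49 to 0.68 and its adjusted p by edgeR 0.00681 to 0.0711. *Cyp3a25* was at 541 to 613 CPM in WT mice and at 531 to 1049 CPM in KO mice, with a log2 fold change of 0.46 (SE 0.20, adjusted p = 0.148). *Cyp3a59* was at 63.6 to 85.0 and 62.8 to 152.9 CPM, with 0.65 (SE 0.27, adjusted p = 0.134). In KO females *Cyp3a25* and *Cyp3a59* were high in replicates 1 and 2, at 1049 and 916 CPM for *Cyp3a25*, and near the WT level in replicates 3 and 4. These 2 mice were also the lowest for *Cyp3a41a* and *Cyp3a41b*. *Cyp3a13* was at 152.6 to 190.1 CPM in KO mice and 143.3 to 168.1 CPM in WT mice, with 0.11 (SE 0.10, adjusted p = 0.501).

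**Figure D3:**
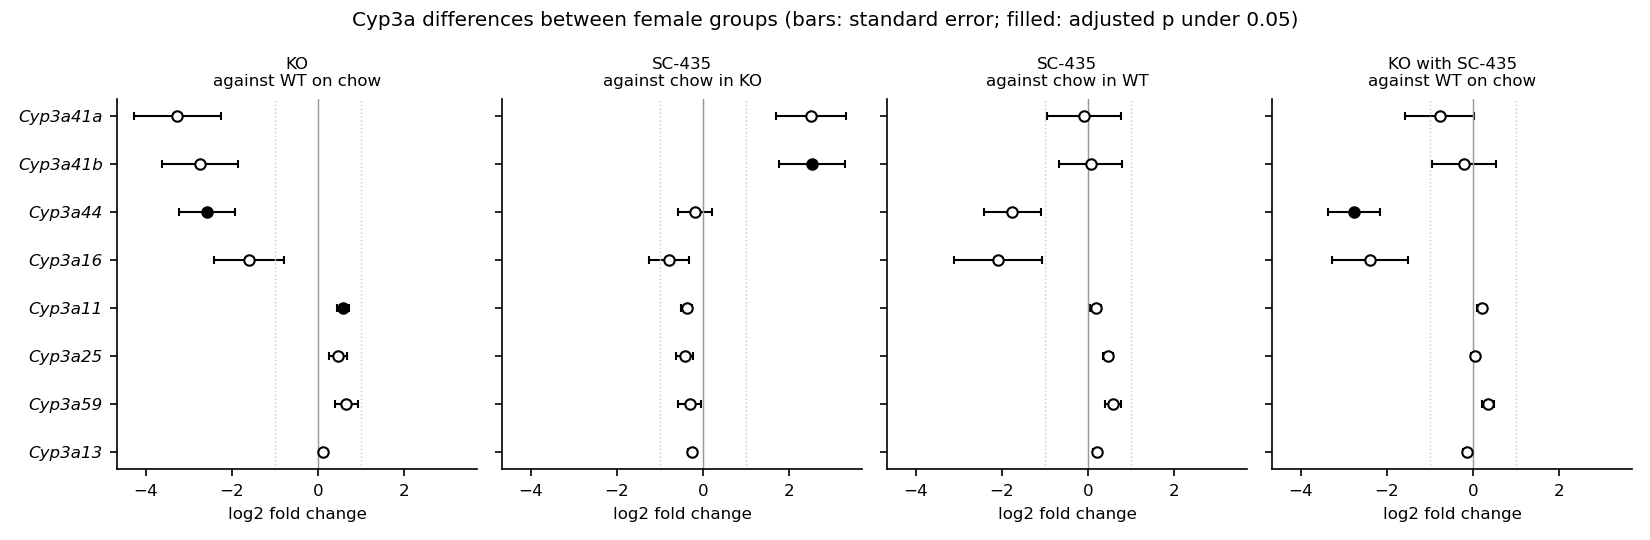
Log2 fold change of each member in 4 comparisons of female groups, with the standard error as a bar and filled points where the adjusted p of edgeR was under 0.05. The female-type genes lie far to the left in KO against WT mice on chow, *Cyp3a41a* and *Cyp3a41b* lie near 2.5 in SC-435 against chow in KO mice, and *Cyp3a44* stays to the left in the last comparison.

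Other cell types moved with the same contrast. The summed level of 10 cholangiocyte markers, all of them found, was 57.8 to 89.6 CPM in WT females on chow and 155.8 to 316.7 CPM in KO females, and 6 of the 9 markers tested were called higher. The sum over 10 macrophage markers, all detected, was 396 to 475 CPM in WT and 626 to 918 CPM in KO mice, with 5 of 10 called higher. The sum over 11 hepatocyte markers was 110370 to 138172 CPM in WT and 74967 to 96619 CPM in KO mice, with 1 of 11, *Apoa1*, called lower. Of 10 pericentral, 8 periportal and 4 tested enterocyte markers 0 were called by edgeR, with 9, 3 and 3 at an unadjusted p under 0.05, and the pericentral sum was 10546 to 11891 CPM in WT and 6894 to 7984 CPM in KO mice. The intestinal marker *Cdx2* had at most 3 counts in any library. The hepatocyte sum was lower in the KO mice and *Cyp3a11* was higher. The part of these marker differences in the *Cyp3a* values was not tested.

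Genes around the family showed a mixed picture in KO against WT females on chow. Of 17 genes of the PXR and CAR axis 3 were called higher and 2 lower, with a median log2 fold change of -0.21 against -0.02 over all genes tested. *Abcb1a*, a drug efflux pump, was at 1.67 (SE 0.33, adjusted p = 0.0097) and *Gsta1*, a glutathione transferase, at 1.57 (SE 0.43, adjusted p = 0.0341), while *Alas1*, which begins heme synthesis, was at -1.46 (SE 0.43, adjusted p = 0.0452). *Nr1i3*, which encodes CAR and is named here after its value was seen, was the other gene called lower, at -1.24 (SE 0.21, adjusted p = 0.00509). *Nr1i2* was at -0.24 (SE 0.13, adjusted p = 0.249). Of 11 female-biased liver genes 0 were called higher and 2 lower, namely the bile acid sulfotransferase *Sult2a1* at -4.43 (SE 0.86, adjusted p = 0.00872) and *Hao2* at -1.44 (SE 0.41, adjusted p = 0.0417). Of 12 male-biased genes 2 were called higher and 4 lower. Of 13 growth hormone regulators 0 were called by edgeR, 4 had an unadjusted p under 0.05, and the median log2 fold change was -0.32.

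SC-435 in KO females was followed by a higher level of *Cyp3a41b*. In this comparison 1 of the 8 members was called higher and 0 lower, where 5.8% of the 16332 genes tested were called and 2.11% were called higher. *Cyp3a41b* was at 63.6, 55.5, 65.2 and 7.88 CPM in KO females on SC-435, against 1.92, 2.78, 9.55 and 19.3 CPM on chow. Replicate 4 on SC-435 lay within the chow range and the other 3 mice above it. The log2 fold change was 2.52 (SE 0.76, adjusted p = 0.0456 by edgeR), or 5.73-fold. *Cyp3a41a* was at 57.3, 23.5, 71.6 and 9.90 CPM on SC-435, with a log2 fold change of 2.49 (SE 0.81, adjusted p = 0.058). With the counts of the 2 genes summed, 0 members were called. The call on *Cyp3a41b* was lost without any 1 of replicates 1, 2 and 3 of either group (adjusted p = 0.0834 to 0.111), and *Cyp3a41a* was called in addition without replicate 4 of either group.

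The other 2 female-type genes did not pass the test. *Cyp3a44* was at 9.60, 10.5, 7.82 and 3.998 CPM on SC-435, with a log2 fold change of -0.19 (SE 0.40, adjusted p = 0.785) against KO females on chow. *Cyp3a16* had a log2 fold change of -0.78 (SE 0.46, adjusted p = 0.262), and -1.43 (SE 0.36, adjusted p = 0.0414) without replicate 1 on SC-435. *Cyp3a11* was at 3219, 3450, 3149 and 3477 CPM on SC-435, below every KO female on chow, with a log2 fold change of -0.39 (SE 0.12, adjusted p = 0.0516). *Cyp3a13* also lay below every chow-fed mouse, at 132.6 to 145.2 CPM, with -0.26 (SE 0.09, adjusted p = 0.0584). Neither passed the test. *Cyp3a25* and *Cyp3a59* had log2 fold changes of -0.42 (SE 0.20, adjusted p = 0.162) and -0.32 (SE 0.27, adjusted p = 0.454). Of the 10 macrophage markers 5 were called lower, with summed levels of 326 to 506 CPM on SC-435, and 0 of 9 cholangiocyte markers were called by edgeR, with 2 at an unadjusted p under 0.05. Of 10 pericentral markers 3 were called higher, and of 8 periportal and 4 enterocyte markers 0 were called. Their part in these values was not tested.

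Among 11 female-biased liver genes 3 were called higher with SC-435 in KO females and 0 lower, with a median log2 fold change of 1.10 against -0.02 over all genes. *Sult2a1* was at 6.57 (SE 0.60, adjusted p = 0.000795), *Sult3a1*, a female-type sulfotransferase, at 3.36 (SE 0.91, adjusted p = 0.0304), and *Hao2* at 1.59 (SE 0.39, adjusted p = 0.0222). Of the 12 male-biased genes 3 were also called higher and 1 lower, with a median of 0.25. Of these, *Elovl3*, an elongase of fatty acids, was at 3.98 (SE 0.63, adjusted p = 0.00444), *Selenbp2* at 1.46 (SE 0.41, adjusted p = 0.0345) and *Mup20* at -2.26 (SE 0.44, adjusted p = 0.00914). Of 13 growth hormone regulators 0 were called higher and 2 lower, *Cish* at -2.97 (SE 0.36, adjusted p = 0.00164) and *Socs2* at -1.34 (SE 0.26, adjusted p = 0.00951), both feedback inhibitors induced by STAT5. Of the 17 genes of the PXR and CAR axis 2 were called higher, *Gsta1* at 2.27 and *Aldh1a1* at 1.33, and 1 lower, *Abcb1a* at -1.36. *Nr1i3* was at 0.84 (SE 0.19, adjusted p = 0.0146) and *Nr1i2* at -0.27 (SE 0.12, adjusted p = 0.138).

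KO females on SC-435 were also set against WT females on chow, to show which members were still apart under treatment. Only *Cyp3a44* of the 8 genes was called, in a comparison where 3.93% of 15881 genes were called and 1.22% were called lower. Every KO female on SC-435, at 3.998 to 10.5 CPM, was below every WT female on chow, at 11.6 to 94.7 CPM, with a log2 fold change of -2.76 (SE 0.60, adjusted p = 0.0112 by edgeR). *Cyp3a41a* and *Cyp3a41b* had log2 fold changes of -0.77 (SE 0.80, adjusted p = 0.555) and -0.21 (SE 0.74, adjusted p = 0.879), and *Cyp3a16* of -2.38 (SE 0.88, adjusted p = 0.0907), the latter called without replicate 4 of the WT females (-2.78, adjusted p = 0.0205). *Cyp3a11* was at 0.20 (SE 0.11, adjusted p = 0.242) and *Cyp3a25* at 0.04 (SE 0.08, adjusted p = 0.783). *Cyp3a59* and *Cyp3a13* were at 0.34 (SE 0.13, adjusted p = 0.103) and -0.15 (SE 0.08, adjusted p = 0.247). Of the 17 genes of the PXR and CAR axis 2 were called higher and 1 lower, of the 13 growth hormone regulators 0 and 3, of the 12 male-biased genes 2 and 2, and of the 11 female-biased genes 0 and 0 by edgeR, with 3 of the latter at an unadjusted p under 0.05. Of 9 cholangiocyte markers 3 were called higher and 8 had an unadjusted p under 0.05, with summed levels of 120.3 to 169.2 CPM in KO females on SC-435, above all WT females on chow. Of 4 enterocyte markers 1 was called higher and 1 lower, and of 10 macrophage markers 0 were called by edgeR, with 1 at an unadjusted p under 0.05. Their part in the *Cyp3a* values was not tested. This comparison shares its control mice with KO against WT on chow and its treated mice with SC-435 against chow in KO.

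In WT females SC-435 left 0 of 8 members called by edgeR, where 1.1% of 15739 genes were called, while 4 had an unadjusted p under 0.05 and DESeq2 and voom called 0. The share of all genes at that unadjusted threshold was not computed. *Cyp3a25* was at 629, 889, 779 and 865 CPM on SC-435, above every chow-fed WT female, with a log2 fold change of 0.47 (SE 0.11, adjusted p = 0.0514). *Cyp3a44* was at 27.7, 8.88, 6.997 and 20.02 CPM, with -1.76 (SE 0.66, adjusted p = 0.176), and *Cyp3a16* had -2.09 (SE 1.012, adjusted p = 0.286). *Cyp3a41a* was at 96.4, 25.1, 19.1 and 118.4 CPM, in the range of WT females on chow, with -0.10 (SE 0.85, adjusted p = 0.967). *Cyp3a41b* had 0.06 (SE 0.73, adjusted p = 0.977). *Cyp3a59*, *Cyp3a13* and *Cyp3a11* had 0.57 (SE 0.19, adjusted p = 0.125), 0.21 (SE 0.09, adjusted p = 0.242) and 0.17 (SE 0.12, adjusted p = 0.48). Of the 13 growth hormone regulators 0 were called higher and 2 lower, of the 11 female-biased genes 0 and 1, and of the 12 male-biased genes 3 and 1, while the PXR and CAR axis had 0 of 17 called by edgeR.

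The response to SC-435 of KO and WT females was compared as an interaction. By edgeR 0 of 8 members passed at an adjusted p under 0.05, as 2.64% of 16882 genes did, and 5 had an unadjusted p under 0.05. The share of all genes at that unadjusted threshold was not computed, so the 5 cannot be set against it. The nearest were *Cyp3a13* at -0.48 (SE 0.12, adjusted p = 0.0527), *Cyp3a25* at -0.89 (SE 0.24, adjusted p = 0.0593) and *Cyp3a11* at -0.56 (SE 0.17, adjusted p = 0.0849), each with a lower response in KO than in WT mice. DESeq2 and voom each called these 3 genes, with adjusted p of 0.0118 and 0.0109 for *Cyp3a13*, 0.0122 and 0.00985 for *Cyp3a25*, and 0.0304 and 0.0196 for *Cyp3a11*. In all, DESeq2 called 1205 genes in this interaction against 445 by edgeR. The share of 2.64% is that of edgeR and does not apply to DESeq2 or voom. In edgeR the 3 passed without replicate 4 of the KO females on chow, and *Cyp3a13* alone passed without replicate 1 of that group or replicate 4 of the WT females on SC-435. *Cyp3a41a* and *Cyp3a41b* were at 2.60 (SE 1.29, adjusted p = 0.277) and 2.46 (SE 1.15, adjusted p = 0.248).

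In males 3 of the female-type genes, *Cyp3a41a*, *Cyp3a41b* and *Cyp3a44*, did not reach the count filter and were not tested. By edgeR 0 of the other 5 members was called in any of the 4 comparisons. The called share of all genes was 1.05% for KO against WT on chow, 6.45% for SC-435 against chow in KO, 0.0394% for SC-435 against chow in WT and 0.208% for KO with SC-435 against WT on chow. An unadjusted p under 0.05 was reached by 1 member in the third of these comparisons and by 0 in the others, and DESeq2 and voom called 0 in all 4.

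*Cyp3a11* was at 3383, 4872, 4732 and 3151 CPM in WT males on chow and at 3267, 5220, 4713 and 2732 CPM in KO males, and the groups overlapped throughout. The log2 fold change was 0.02 (SE 0.28, adjusted p = 0.977), and -0.06 (SE 0.27, adjusted p = 0.911) without replicate 1 of the WT males. In KO males on SC-435 *Cyp3a11* was at 5656, 5647, 5056 and 4926 CPM, with a log2 fold change of 0.39 (SE 0.21, adjusted p = 0.216) against KO males on chow. The range in KO males on chow, at 1.91-fold, was wider than on SC-435, at 1.15-fold. *Cyp3a13* was the member with an unadjusted p under 0.05. It was at 170.6 to 246.5 CPM in WT males on SC-435 and 117.6 to 162.4 CPM on chow, with no overlap and a log2 fold change of 0.54 (SE 0.20, adjusted p = 0.71). Without replicate 1 of the WT males on chow, the highest of its group, the value was 0.66 (SE 0.14, adjusted p = 0.0429 by edgeR), under the fold required for a call. By voom with quality weights it was 0.56 (adjusted p = 0.0036), also under that fold. Without replicate 1 of the WT males on chow 0 members were called in each male comparison that uses this mouse. The called share of all genes was then 3.89% for KO against WT on chow and 1.03% for SC-435 against chow in WT. For KO with SC-435 against WT on chow it was 2.63%. *Cyp3a25* and *Cyp3a59* had log2 fold changes from -0.32 to 0.43 and from -0.21 to 0.45 over the 4 comparisons. *Cyp3a16* passed in none of them, with log2 fold changes of 0.23, 0.84, 0.54 and 1.05 for KO against WT on chow, SC-435 in KO, SC-435 in WT and KO with SC-435 against WT on chow.

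Whether the 2 sexes responded differently was tested as an interaction. *Cyp3a41a*, *Cyp3a41b* and *Cyp3a44* had at most 6 counts in any male, so their response in males could not be estimated. For these genes the interactions with sex cannot decide the question, and no conclusion is drawn. They are still counted among the 8 members, and the results bear on the other 5 only. By edgeR 0 of 8 members passed in the interaction of genotype and sex on chow, with 0.0235% of 17026 genes passing and 0 members at an unadjusted p under 0.05, and DESeq2 and voom called 0. There 0 members and 0.431% of 17401 genes passed by edgeR without replicate 1 of the WT males on chow. In the interaction of SC-435 and sex in KO mice 0 members passed (0.211% of 17069 genes), 2 had an unadjusted p under 0.05, DESeq2 called 0 and voom 1, *Cyp3a11*. *Cyp3a11* had the smallest p, with a log2 difference of -0.79 (SE 0.25, adjusted p = 0.199), made up of -0.39 in females and 0.39 in males. In the interaction of genotype and SC-435 in males 0 of 5 members passed by edgeR (0.0906% of 16555 genes), 0 had an unadjusted p under 0.05, DESeq2 called 0 and voom 1, *Cyp3a13*. Without replicate 1 of the WT males on chow 0 members and 0.697% of 16932 genes passed in this interaction.

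**Figure D4:**
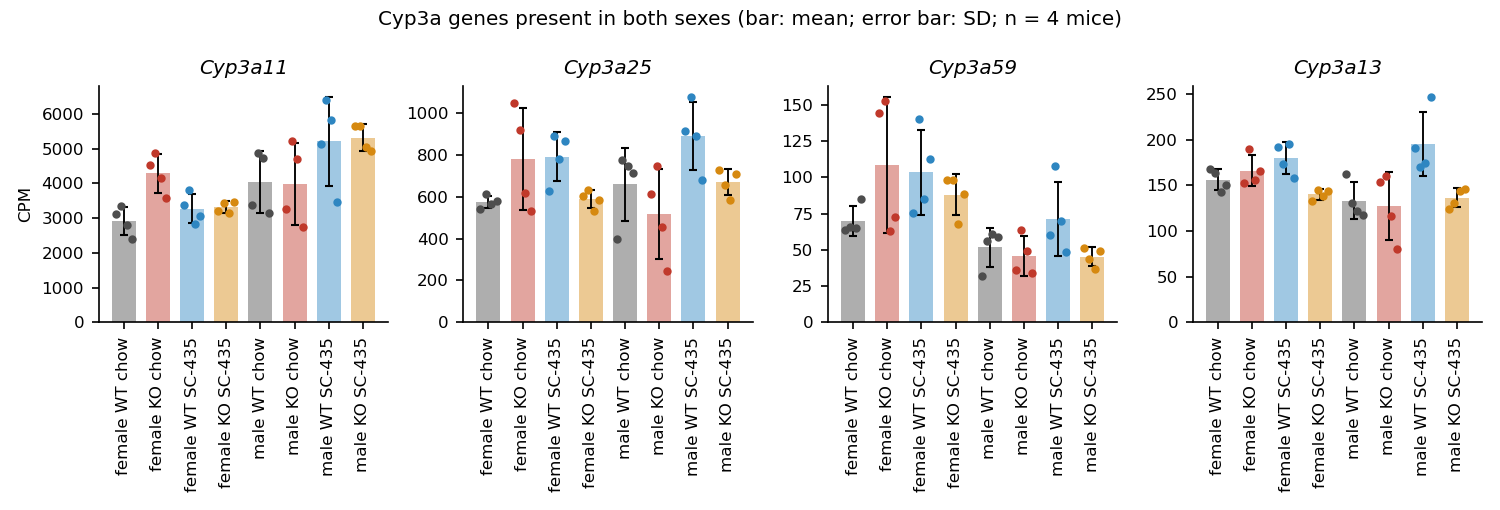
CPM of *Cyp3a11*, *Cyp3a25*, *Cyp3a59* and *Cyp3a13* by group (bar, mean; error bar, SD; points, 4 mice). KO females on chow lie above WT females on chow for *Cyp3a11*, at 4287 ± 556 against 2917 ± 403 CPM, and the chow-fed male groups overlap for all 4 genes.

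Ordered by mean level, *Cyp3a11* ran from KO males on SC-435 (5321 ± 385 CPM) and WT males on SC-435 (5208 ± 1272) through KO females on chow (4287 ± 556), WT males on chow (4034 ± 893) and KO males on chow (3983 ± 1175) to KO females on SC-435 (3324 ± 164), WT females on SC-435 (3276 ± 421) and WT females on chow (2917 ± 403). Each neighbouring pair in this order overlapped. *Cyp3a41a* ran from WT females on chow (69.7 ± 60.7 CPM) and on SC-435 (64.7 ± 50.1) to KO females on SC-435 (40.6 ± 28.7) and on chow (7.22 ± 7.57). These neighbours overlapped too, and the male groups were at or below 0.0134 CPM.

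The make-up of the family followed these differences. The 4 female-type genes are taken to include *Cyp3a16*, for which the sexes overlapped on SC-435. On the scale of summed CPM per kb, these 4 genes made up 8.77% of the family in WT females on chow, with 1.33% to 15.7% in single mice. They made up 1.28% in KO females on chow (0.41% to 2.61%), 5.80% in WT females on SC-435 and 4.58% in KO females on SC-435. In the male groups their mean share was between 0.0449% and 0.0747%. *Cyp3a11* made up 53.3% to 63.2% of the family in the female groups and 65.4% to 72.7% in the male groups.

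**Figure D5:**
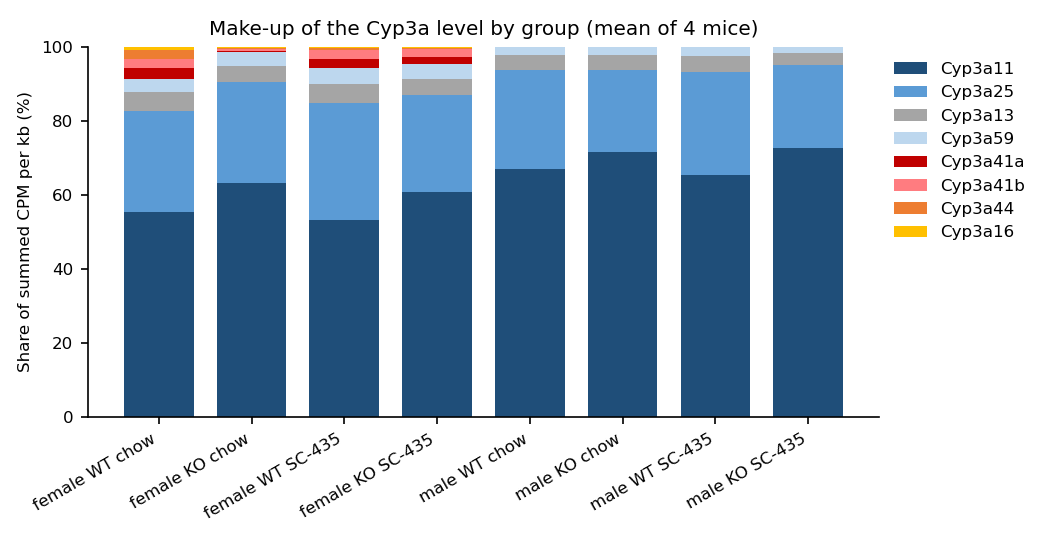
Share of each member in the summed CPM per kb of the 8 genes, in percent, as the mean of 4 mice per group. *Cyp3a11* and *Cyp3a25* form most of each bar, and the female-type genes form a visible part in females, of 8.77% in WT mice on chow and 1.28% in KO mice on chow.

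Genes outside the family with the most similar pattern were sought for *Cyp3a11* and *Cyp3a41a* over the 8 group means of centred log2 CPM, among 11893 protein-coding genes. For *Cyp3a41a* these included *Sult3a1* and *Sult2a2*, with root mean square differences of 0.790 and 0.884 against a median of 4.52 over all genes. Because *Cyp3a41a* was near 0 in males, this measure mainly ranks genes by a similar sex difference. The genes were picked by these same means, so the likeness is a description without a test. *Sult3a1* was at 137 ± 72.7 CPM in WT females on chow, 14.6 ± 22.3 in KO females on chow, 201 ± 47.7 in WT females on SC-435 and 149 ± 13.4 in KO females on SC-435, with at most 0.2005 CPM in a male. For *Cyp3a11* the most similar genes were *Exph5*, *Comtd1* and *Csrp2*, with differences of 0.109, 0.130 and 0.139 against a median of 0.349.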

How the data were processed

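The authors extracted RNA from flash-frozen liver, sequenced poly-A selected libraries on an Illumina instrument and deposited raw counts of reads per gene. The submitters' processing notes name HISAT2 2.0.5, featureCounts 1.5.0-p3, DESeq2 1.20.0, GATK 4.1.1.0 and the build mm10. The handling of reads with several matches, the read length and the strand setting are not given in the sources used here. Read assignment between *Cyp3a41a* and *Cyp3a41b* depends on them. The deposited table also holds FPKM values and the authors' own fold changes and p-values, which were not used.

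Counts were tested with the quasi-likelihood test of edgeR 4.0.16 (R 4.3.3, limma 3.58.1), with TMM scaling, a filter on low counts (filterByExpr, minimum count 10 and minimum total 15) and Benjamini-Hochberg adjustment over all genes tested, in 12 fits of 2 groups (8 libraries) and 4 interaction fits (16 libraries). Interactions were called at an adjusted p under 0.05. Counts at an unadjusted p under 0.05 are given without the share of all genes, which was not computed. Standard errors were derived from the F statistic. The members and gene lists were chosen with earlier results of these data known. Genes of a list were named if called, 3 per list at most and largest first, and *Nr1i2* and *Nr1i3* were added after their values were seen. Some genes that the rules on naming would give are not reported here. Alternatives were DESeq2 1.42.0, voom with quality weights, other scalings, no filter, all 8 groups in a single fit, summed counts of *Cyp3a41a* and *Cyp3a41b*, a replicate block and the omission of each mouse.

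Library totals of 36476021 to 44771350 counts leave counting error small beside the spread among mice, except for the female-type genes in males. The tests were tested on simulated data. Same-numbered mice did not deviate together (correlations of -0.29 to 0.38, with every pair over 0.1 in 0 comparisons), so the numbers were taken as names. None of the 48 pairs of libraries within a group was alike within sampling noise. Coordinates are GRCm38 with GENCODE transcripts.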

Additional observations from a re-analysis of the deposited data

Results flagged for a closer look

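In groups of 4 mice, the gap in log2 CPM of the most extreme mouse to its neighbour was taken as a share of the whole range. This share was compared with the critical value of Dixon's test, which chance exceeds in about 1 in 20 groups. Of 53 group and gene combinations 5 exceeded it. *Cyp3a25* and *Cyp3a59* were low in replicate 1 of the WT males on chow, at 397.4 and 32.02 CPM, and this is the library with the scaling factor of 0.639. *Cyp3a41b* was low in replicate 4 of the KO females on SC-435, at 7.88 CPM against 55.5 to 65.2 CPM in the other 3 mice. *Cyp3a59* was high in replicate 4 of the WT females on chow, at 85.0 CPM, the mouse with the lowest *Cyp3a41a* of its group. *Cyp3a44* was at 0.162 CPM, or 6 counts, in replicate 3 of the KO males on SC-435, where the other 3 mice had 0. With these zeros the share is 1 at any level of the remaining mouse, so this flag carries no information.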

How the results depend on the processing

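For KO against WT females on chow, the 1 member called became 2 with library sizes alone, 3 with DESeq2, 3 with no filter, 3 with all 8 groups in a single fit, all lower, and 2 by adjusted p alone. Leaving out a mouse gave 0 to 3. For SC-435 in KO females, the 1 member called became 2 with DESeq2, voom or no filter and 0 with *Cyp3a41a* and *Cyp3a41b* summed, and leaving out a mouse gave 0 to 2. For KO females on SC-435 against WT females on chow the count was 2 with no filter and 1 to 2 without a mouse. Between the sexes, the count of 4 in KO mice on chow was 5 with DESeq2, voom or no filter and 2 to 4 without a mouse, that of 3 in WT mice on chow was 4 with DESeq2, no filter or a single fit and 2 to 4 without a mouse, and that of 3 in KO mice on SC-435 was 3 to 4 without a mouse and 5 by adjusted p alone. The interaction of genotype and SC-435 in females went from 0 to 3 with library sizes alone, DESeq2 or voom, to 1 with no filter, and to 0 to 3 without a mouse. Voom called 1 in the interaction of SC-435 and sex in KO mice and 1 in that of genotype and SC-435 in males. The number of all genes called moved as well. With DESeq2 it was 1218 against 1082 by edgeR for KO against WT females on chow, and 1038 against 948 for SC-435 in KO females. Between the sexes it was 450 against 217 in WT mice on chow and 439 against 260 in KO mice on chow. In the interaction of genotype and SC-435 in females it was 1205 against 445. The cause of these changes was not tested.

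With the replicate block, 0 members were called for KO against WT females on chow (*Cyp3a44* -2.25, adjusted p = 0.149 by edgeR) and 0 for SC-435 in KO females (*Cyp3a41b* 2.91, adjusted p = 0.117). *Cyp3a16* between the sexes in KO mice on chow had an adjusted p of 0.0634, and the block changed no other call. The numbers do not pair the mice.

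Among single genes, leaving out a mouse kept the side of the threshold in 1092 cases, gained a call in 18 and lost 26, and the other settings kept it in 803, gained 31 and lost 4. No direction of a called value reversed. Library sizes alone moved the median of all genes by up to 0.25 on the log2 scale. They also moved the level in KO females on chow to 4935 CPM for *Cyp3a11* and 190.6 CPM for *Cyp3a13*. At 4 mice per group, with SDs near the mean for the female-type genes, the number of mice rather than depth sets the precision. Depth limits only *Cyp3a41a*, *Cyp3a41b* and *Cyp3a44* in males.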

Other observations

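Over the 16 females the pattern closest to *Cyp3a41a* was sought mouse by mouse, a comparison chosen after the values were seen. The measure was the root mean square difference of centred log2 CPM, with a median of 1.997 over 11893 protein-coding genes. Within the family *Cyp3a41b* was closest at 0.454, *Cyp3a44* followed at 1.44 and *Cyp3a16* at 1.89. *Cyp3a41a* and *Cyp3a41b* share most of their sequence, and the part of read assignment in their closeness was not tested. *Cyp3a11*, *Cyp3a13*, *Cyp3a25* and *Cyp3a59* were at 2.02 to 2.26, no nearer than the median gene. Outside the family the closest genes included *Cyp2c69*, a female-type member of another cytochrome P450 family, at 0.972, *Dct* at 1.08, *Dntt* at 1.12 and *Lrtm1* at 1.21. *Cyp2c69* averaged 940 ± 546 CPM in WT females on chow, 192 ± 153 in KO females on chow, 1105 ± 422 in WT females on SC-435 and 891 ± 213 in KO females on SC-435 (SD, n = 4). The 16 mice share group structure and scaling, so this is a description without a test.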
